A study of Mus musculus with 16 samples.

Results

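The clustered protocadherins are cell surface adhesion proteins encoded by a tandem array of genes on mouse chromosome 18, in the order Pcdha, Pcdhb and Pcdhg. They were taken here as every probe of the expression array whose annotated gene symbol belongs to the alpha, beta or gamma cluster, with no requirement for expression. This rule found 51 probes for 50 genes among the 25697 probes of the array. The alpha cluster had 9 probes for 8 of 14 annotated genes, the beta cluster had 22 probes for 22 of 22 genes and the gamma cluster had 20 probes for 20 of 22 genes. The annotated genes not measured were Pcdha1, Pcdha3, Pcdha4, Pcdha5, Pcdha8, Pcdha12, Pcdhga11 and Pcdhgb4. Pcdha6 was measured by 2 probes, and Pcdhgb8 is annotated as a transcribed pseudogene. No sequence of the locus was read for this work, so whether a probe lies in a variable or a shared exon, or also binds a paralogue, was not checked.

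Each alpha and gamma gene has a variable first exon with its own promoter, which is spliced to constant exons shared by the whole cluster, whereas the beta genes have no shared constant exons. In mouse neurons most of these promoters are chosen at random, so that each neuron carries its own combination of isoforms, and the proteins recognise the same isoform on a neighbouring cell and take part in dendrite self-avoidance. Promoter choice in mouse depends on DNA methylation and on looping by CTCF and cohesin. Smchd1 is a noncanonical SMC protein, related to the subunits of cohesin and condensin, and is required for gene silencing on the inactive X chromosome.

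Total RNA of whole mouse embryos at embryonic day 9.5, all on the inbred FVB/n strain, was hybridised to Illumina MouseRef-8 BeadChips. The 4 groups were MommeD1 females, wildtype females, MommeD1 males and wildtype males, with 4 arrays each and 16 in all. MommeD1 is a chemically induced nonsense allele of Smchd1, present in every tissue and homozygous in the MommeD1 embryos, and the wildtype embryos were Smchd1+/+. The comparison asked which clustered protocadherins change in transcript level when Smchd1 is missing, in females and in males, which have no inactive X chromosome.

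The arrays were taken as 2 chips of 8, each with 2 arrays of every group. Replicates 1 and 2 of each group were assigned to chip 1, and replicates 3 and 4 to chip 2. The sample titles name no chip. Values are normalised log2 intensities, and every array had a median of 6.34, so a difference of 1 is a doubling of the normalised signal. The brightest Smchd1 probe averaged 7.48 in MommeD1 females, against 9.91 in wildtype females, and 7.48 in MommeD1 males, against 9.82 in wildtype males. It was thus lower in the groups labelled MommeD1 in both sexes. A further Smchd1 probe was lower by 0.92 and 0.95 (log2 fold changes of -0.92 in females and -0.95 in males), and a dim one near the floor of the array differed by -0.02 and 0.04. On 3 arrays, MommeD1 female 2, MommeD1 male 1 and wildtype male 3, transcripts of yolk sac endoderm were high. The mean of 17 probes for such transcripts ranged over 6.45 to 8.22 in MommeD1 females and 6.52 to 7.29 in wildtype females, and over 6.39 to 7.61 in MommeD1 males and 6.38 to 7.60 in wildtype males. No wildtype female was among the 3 arrays, although that group averaged 7.02 for these probes, against 6.71 in wildtype males. Values without the 3 arrays are given below for Pcdhb22, Pcdhb3, Pcdhb16, Pcdhb15 and Pcdha6, and were not computed for the other members. In whole embryos, fewer cells that transcribe a gene and less RNA of it per cell cannot be told apart.

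The clustered protocadherins were dim in these embryos. None of the 51 probes had a mean above 7 over the 16 arrays, the level above which the study counted a gene as expressed, whereas 36.6% of all probes did. Only Pcdhb22 exceeded 7 on any array, where 40.2% of all probes did, and it did so on 8 of 8 MommeD1 arrays and 0 of 8 wildtype arrays. The probe means ranged over 5.65 to 6.18 in the alpha cluster, 5.68 to 6.95 in the beta cluster and 5.62 to 6.40 in the gamma cluster. In all, 4 members lay above the median probe of the array, as 50% of all probes do by definition. The median standard deviation within groups was 0.109 for the members and 0.110 for all probes, so their replicates were no noisier than those of other genes.

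In MommeD1 females, 3 of 51 members were higher than in wildtype females and 0 were lower (limma, Benjamini-Hochberg adjusted p below 0.05 over all probes). Over all probes, 0.926% were called higher and 0.49% lower in this comparison, and among the 16296 probes with a mean of at most 7, 0.16% were called higher. The 3 members were Pcdhb22, Pcdhb3 and Pcdhb16, all of the beta cluster. In MommeD1 males, Pcdhb22 alone was called higher and 0 members were lower, where 0.0233% of all probes were called higher and 0.0195% lower. Over both sexes, as the mean of the female and male effects, Pcdhb22 and Pcdhb3 were called higher and 0 members lower, where 1.17% of all probes were called higher and 0.844% lower. Among the probes with a mean of at most 7, 0.0123% were called higher in males and 0.19% over both sexes. The female and male effects come from separate embryos, while the average shares its arrays with both. These 3 genes were named as markers of the group with earlier results of the same arrays in view, so the counts describe the arrays and are not independent evidence.

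Pcdhb22 is the last gene of the beta cluster. Its log2 intensities were 7.51, 7.64, 7.68 and 7.32 in MommeD1 females, against 6.32, 6.45, 6.52 and 6.54 in wildtype females. In MommeD1 males they were 7.45, 7.22, 7.59 and 7.06, against 6.43, 6.51, 6.34 and 6.59 in wildtype males. Every MommeD1 array was above every wildtype array in both sexes, a separation that 0.393% of all probes showed in this direction. The group means were 7.54 ± 0.17 in MommeD1 females and 6.46 ± 0.10 in wildtype females, and 7.33 ± 0.23 in MommeD1 males and 6.47 ± 0.11 in wildtype males (SD, n = 4 each).

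The log2 fold change of Pcdhb22 was 1.08 ± 0.10 in females (SE, limma adjusted p = 1.02e-07), a ratio of 2.12. It was 0.86 ± 0.10 in males (limma adjusted p = 1.03e-05), a ratio of 1.82. Against the level of 7 rather than the wildtype signal, which lies in the dim range of the array, the ratios were 1.45 in females and 1.26 in males. The effects in the sexes differed by 0.22 ± 0.14, with a 95% interval of -0.06 to 0.50 (limma adjusted p = 0.886). With any of the 16 arrays left out the female effect lay between 1.03 and 1.16 and the male effect between 0.78 and 0.95, all called. Without the 3 arrays high in yolk sac transcripts the effects were 1.05 in females and 0.78 in males. Within chip 1 they were 1.19 in females and 0.87 in males, and within chip 2, with 2 arrays a group, 0.97 in females and 0.86 in males, where the male adjusted p was 0.0625.

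**Figure D1:**
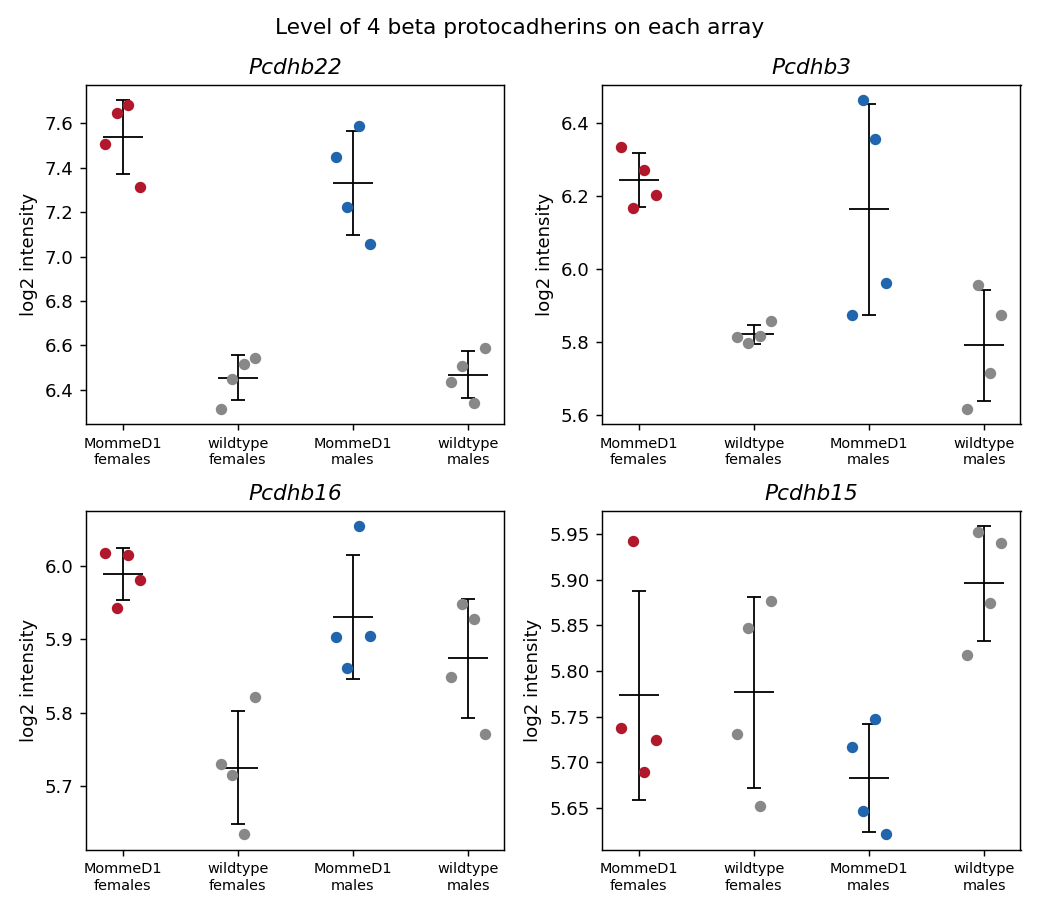
Normalised log2 intensity of Pcdhb22, Pcdhb3, Pcdhb16 and Pcdhb15 on each of the 16 arrays, with 1 point per embryo, and the mean and SD of 4 arrays in black. The Pcdhb22 points of MommeD1 embryos lie at 7.06 or above, and those of wildtype embryos at 6.59 or below, in both sexes, whereas the other 3 genes stay below 6.5 on every array. The vertical axes differ between panels and do not start at 0.

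Pcdhb3 lies near the start of the beta cluster. It had log2 intensities of 6.33, 6.17, 6.27 and 6.20 in MommeD1 females, against 5.81, 5.80, 5.82 and 5.86 in wildtype females. In MommeD1 males it had 5.87, 6.46, 6.36 and 5.96, against 5.62, 5.95, 5.71 and 5.88 in wildtype males. The female groups did not overlap, while in males MommeD1 male 1 lay below a pair of wildtype arrays. The log2 fold change was 0.42 ± 0.10 in females (SE, limma adjusted p = 0.0288), 0.37 ± 0.10 in males (limma adjusted p = 0.341) and 0.40 ± 0.07 over both sexes (limma adjusted p = 0.00225). The effect in males missed the threshold, but its difference from that in females was 0.05, with a 95% interval of -0.24 to 0.34 (limma adjusted p = 0.988).

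The Pcdhb3 effect in females kept its size when arrays were left out, between 0.39 and 0.45, but its call did not. The adjusted p lay between 0.0560 and 0.0827 without any 1 of wildtype females 1, 2, 3 and 4 or of MommeD1 females 1, 3 and 4. In males the gene was called without MommeD1 male 1, with a log2 fold change of 0.47 (limma adjusted p = 0.0367). Without the 3 arrays high in yolk sac transcripts the effect was 0.45 in females (limma adjusted p = 0.0229) and 0.44 in males (limma adjusted p = 0.116). Over both sexes the call held with any 1 array left out, with effects between 0.35 and 0.45. Within chips the averaged effect was 0.41 on chip 1 and 0.38 on chip 2, with adjusted p-values of 0.203 and 0.0915 on 8 arrays each.

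Pcdhb16 had log2 intensities of 6.02, 5.94, 6.02 and 5.98 in MommeD1 females, against 5.73, 5.72, 5.63 and 5.82 in wildtype females. In MommeD1 males the values were 5.90, 5.86, 6.05 and 5.90, against 5.85, 5.95, 5.93 and 5.77 in wildtype males. The female groups were apart and the male groups overlapped. The log2 fold change was 0.26 ± 0.07 in females (SE, limma adjusted p = 0.0438), 0.06 ± 0.07 in males (limma adjusted p = 0.904) and 0.16 ± 0.05 over both sexes (limma adjusted p = 0.0762). The effects in the sexes differed by 0.21 ± 0.09 (limma adjusted p = 0.838), so a difference between females and males was not called. Among wildtype embryos, females minus males gave a log2 fold change of -0.15 (limma adjusted p = 1.00).

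The call of Pcdhb16 in females was close to the threshold and was lost under 15 of 26 alternatives, although the effect stayed between 0.23 and 0.30. It was lost without any 1 of 10 arrays, namely MommeD1 females 1 to 4, wildtype females 1 to 3 and wildtype males 1 to 3, with adjusted p-values between 0.0505 and 0.150. It was lost on chip 1 alone (limma adjusted p = 0.482), on chip 2 alone (limma adjusted p = 0.464), on the female arrays alone (limma adjusted p = 0.0736) and without the 3 arrays high in yolk sac transcripts (limma adjusted p = 0.0898).

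**Figure D2:**
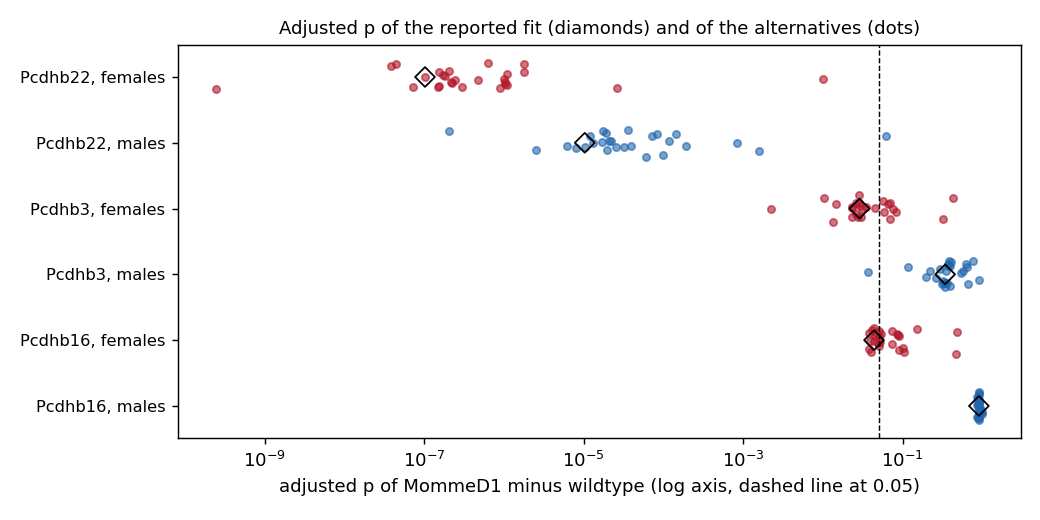
Adjusted p-value of the MommeD1 minus wildtype effect of Pcdhb22, Pcdhb3 and Pcdhb16 in females (red) and males (blue), on a log axis, with the reported value as a diamond, each alternative as a dot and the threshold of 0.05 as a dashed line. Pcdhb22 crossed the line under 1 alternative in males (adjusted p = 0.0625), while dots of Pcdhb3 and Pcdhb16 in females lie on both sides of it.

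The other beta genes showed no called change in either sex. Pcdhb15, which adjoins Pcdhb16, had the lowest p in males among members with a negative log2 fold change. In MommeD1 males its log2 intensities were 5.72, 5.65, 5.75 and 5.62, against 5.82, 5.95, 5.87 and 5.94 in wildtype males. These groups did not overlap, a separation that 2.07% of all probes showed in this direction in males, but the log2 fold change of -0.21 ± 0.07 was not called (SE, limma adjusted p = 0.467). Without the 3 arrays high in yolk sac transcripts it was -0.23 (limma adjusted p = 0.401). In females Pcdhb15 differed by less than 0.01 (limma adjusted p = 0.994), with values of 5.74, 5.94, 5.69 and 5.72 in MommeD1 females, against 5.73, 5.85, 5.65 and 5.88 in wildtype females.

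The measured genes nearest the 3 called members were not called. Beside Pcdhb22, the log2 fold changes of Pcdhb21 were -0.04 in females and -0.02 in males. On its other side those of Taf7 were -0.05 and -0.02, and those of Pcdhga1 were -0.08 and 0.10. Taf7 encodes a subunit of the general transcription factor TFIID and lies between the beta and gamma clusters. Slc25a2, which comes before Taf7 within the locus, had no probe and was not measured. Beside Pcdhb3, Pcdhb2 had values of 0.12 in females and 0.12 in males, and Pcdhb4 had 0.19 and 0.05. Beside Pcdhb16, Pcdhb17 had -0.04 in females and 0.08 in males. None of these was called in either sex, with the lowest adjusted p at 0.339 for Pcdhb4 in females. The called genes are therefore the 3rd, 16th and 22nd of the 22 beta genes along the chromosome, each between members that were not called.

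**Figure D3:**
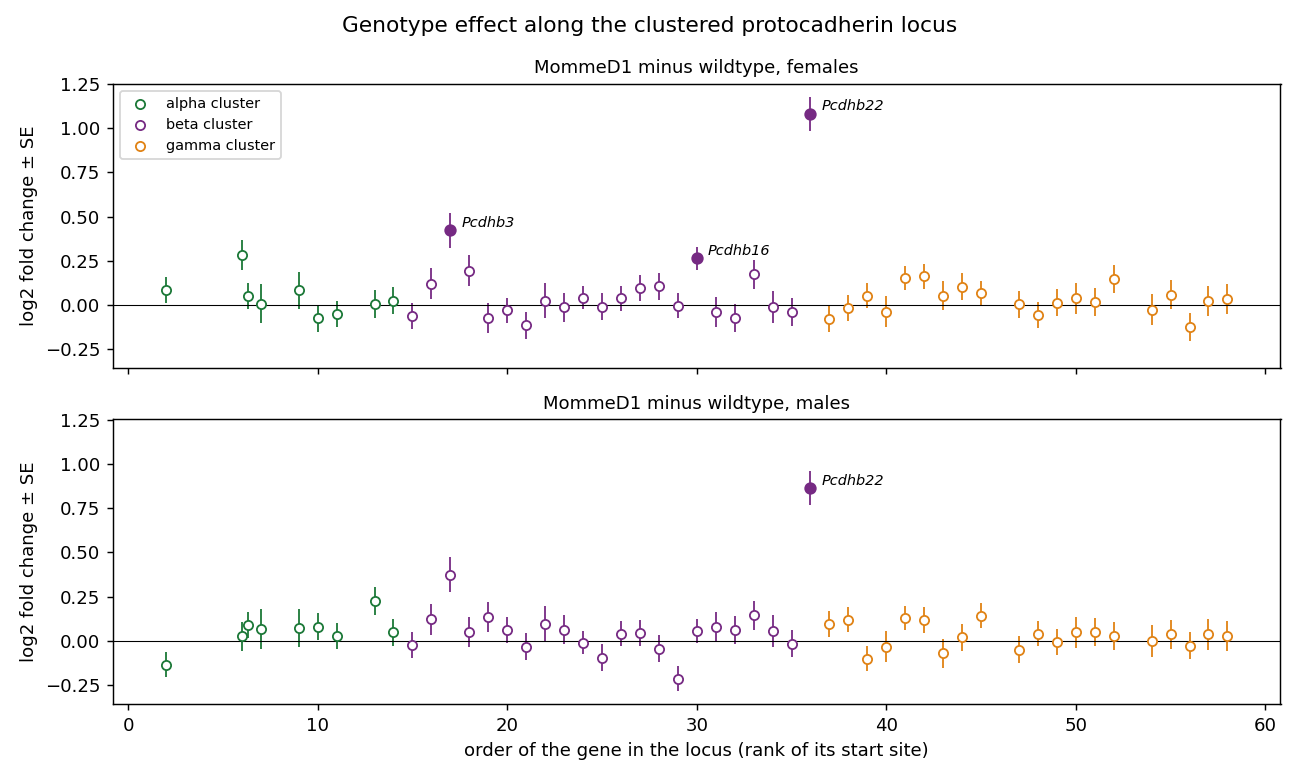
Log2 fold change of MommeD1 minus wildtype with its SE for the 51 member probes, in the order of their genes along the locus, in females (top) and males (bottom), with filled points for an adjusted p below 0.05. Pcdhb22 stands at 1.08 in females and 0.86 in males, and the other probes lie between -0.21 and 0.42 in both panels.

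In the alpha cluster 0 of 9 probes were called in either sex or over both. The 2 probes of Pcdha6 disagreed in females. The brighter one had log2 intensities of 6.34, 6.44, 6.46 and 6.43 in MommeD1 females, against 6.16, 5.86, 6.07 and 6.44 in wildtype females, where wildtype female 4 lay among the MommeD1 values. Its log2 fold change was 0.28 ± 0.08 (SE, limma adjusted p = 0.0909), and without wildtype female 4 it was 0.38 (limma adjusted p = 0.00729). The other probe gave 0.05 ± 0.07 (SE, limma adjusted p = 0.857), with values of 6.09, 5.94, 5.95 and 6.02 in MommeD1 females, against 5.95, 5.74, 6.05 and 6.06 in wildtype females. Without the 3 arrays high in yolk sac transcripts the effects in females were 0.28 for the brighter probe (limma adjusted p = 0.215) and 0.07 for the other. In males the probes gave 0.03 and 0.09, neither called. Over both sexes the brighter probe was called without wildtype female 4 (limma adjusted p = 0.0369) and not otherwise when an array was left out.

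Among the C-type isoforms, which stand at the end of the alpha and gamma clusters and are not chosen at random in most mouse neurons, Pcdhac1 was looked at after its values were seen. It had log2 intensities of 6.16, 6.32, 6.33 and 6.28 in MommeD1 males, against 6.13, 6.03, 6.09 and 5.92 in wildtype males, with no overlap. Its log2 fold change was 0.23 in males (limma adjusted p = 0.524) and 0.01 in females, and the difference between the sexes was not called (limma adjusted p = 0.872). For Pcdhac2, which guides the spacing of serotonergic axons in mouse, the values were 0.03 in females and 0.05 in males. Pcdhgc3 had -0.12 and -0.03, Pcdhgc4, which mouse interneurons need for survival, had 0.02 and 0.04, and Pcdhgc5 had 0.04 and 0.03. None of these 5 genes passed the threshold in either sex.

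In the gamma cluster 0 of 20 probes were called in any comparison, and their log2 fold changes lay between -0.12 and 0.16 in females and between -0.10 and 0.14 in males. Pcdhga4, also looked at after its values were seen, had 6.42, 6.43, 6.46 and 6.49 in MommeD1 females, against 6.39, 6.24, 6.36 and 6.21 in wildtype females. These groups did not overlap, but the effect of 0.15 was not called (limma adjusted p = 0.335).

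The groups of 8 members did not overlap in at least 1 sex. In females 4 of 51 were higher on every MommeD1 array than on any wildtype array (Pcdhb22, Pcdhb3, Pcdhb16 and Pcdhga4) and 0 were lower, where 3.64% of all probes were higher and 3.91% lower in this way. In males 3 were higher (Pcdhb22, Pcdhac1 and Pcdhga2) and 2 were lower (Pcdhb15 and Pcdha2), where 2.07% of all probes were higher and 2.07% lower. The Pcdhga2 groups in males touched at 6.22 to 2 decimals.

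The members that were not called are described by their counts and intervals. At an unadjusted p below 0.05, 8 members were higher and 0 lower in females, where 6.11% of all probes were higher and 6.41% lower, and where 3.23% of the probes with a mean of at most 7 were higher and 3.09% lower. In males 4 were higher and 1 lower, where 3.76% of all probes were higher and 3.53% lower. Over both sexes 9 were higher and 1 lower, where 6.74% of all probes were higher and 6.84% lower. Among the probes with a mean of at most 7, 2.81% were higher and 2.52% lower in males. Over both sexes 3.3% of these dim probes were higher and 3.07% lower. The 48 members not called in females had log2 fold changes between -0.12 and 0.28, and their 95% intervals lay within -0.28 and 0.45. The 50 not called in males lay between -0.21 and 0.37, with intervals within -0.36 and 0.58. For a member with the median standard error of 0.08 in 1 sex, a log2 fold change had to reach 0.30 in females, 0.41 in males and 0.20 over both sexes to be called, and the bound was lower for members with a smaller error, such as Pcdhb16.

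More members had a positive than a negative log2 fold change, 32 of 51 in females and 37 of 51 in males, where 48.8% of all probes in females and 50% in males were positive. By cluster the positive probes numbered 7 of 9 alpha, 11 of 22 beta and 14 of 20 gamma in females, and 8 of 9 alpha, 15 of 22 beta and 14 of 20 gamma in males. The median log2 fold change was small in each cluster, at 0.03 for alpha, 0.01 for beta and 0.03 for gamma in females, and at 0.07 for alpha, 0.06 for beta and 0.03 for gamma in males. Over all members it was 0.03 in females and 0.05 in males, beside medians of all probes that were 0.00 in both sexes. Leaving out Pcdhb22 gave medians of 0.02 in females and 0.05 in males. Probes of 1 embryo share its RNA and are not independent, so these counts carry no test.

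On single arrays, the median of the 22 beta probes ranged over 5.84 to 5.89 in MommeD1 females and 5.83 to 5.84 in wildtype females, and over 5.85 to 5.92 in MommeD1 males and 5.86 to 5.90 in wildtype males. The alpha medians ranged over 5.94 to 6.09 in MommeD1 females and 5.93 to 6.07 in wildtype females, and over 5.97 to 6.05 in MommeD1 males and 5.93 to 5.98 in wildtype males. The gamma medians ranged over 5.87 to 6.01 in MommeD1 females and 5.88 to 5.97 in wildtype females, and over 5.88 to 5.96 in MommeD1 males and 5.87 to 5.92 in wildtype males. The genotypes overlapped at every cluster median apart from the beta medians in females, which met at 5.84 to 2 decimals.

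**Figure D4:**
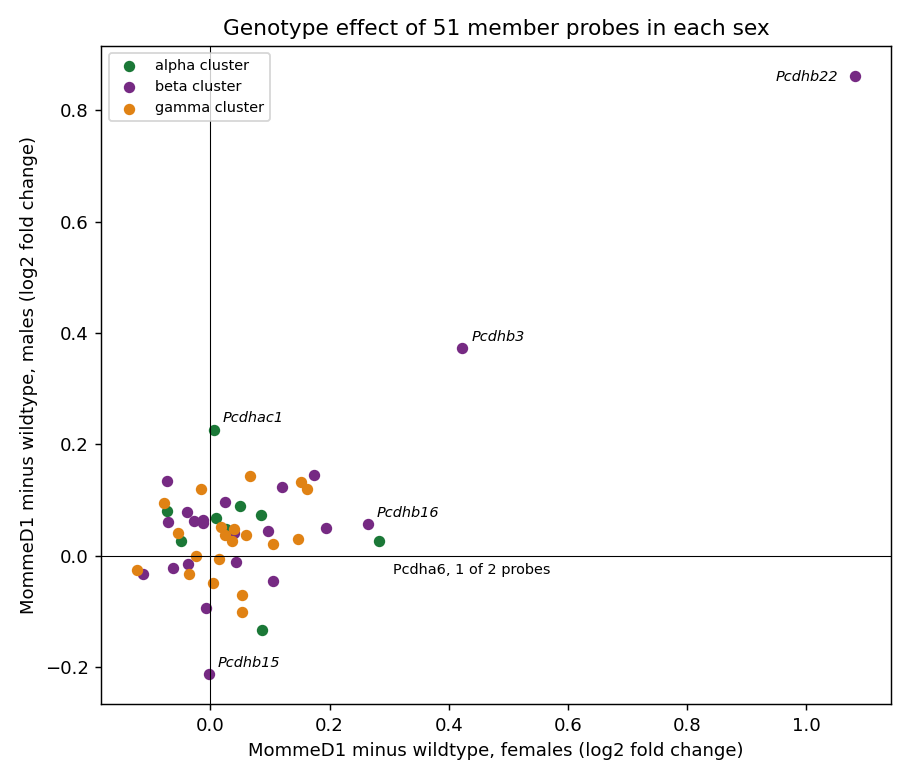
Log2 fold change of MommeD1 minus wildtype in females (horizontal axis) and in males (vertical axis) for the 51 member probes, coloured by cluster. Pcdhb22 (1.08 and 0.86) and Pcdhb3 (0.42 and 0.37) lie apart from the other probes in both sexes, while Pcdhb16 (0.26 and 0.06), the brighter Pcdha6 probe (0.28 and 0.03), Pcdhac1 (0.01 and 0.23) and Pcdhb15 (about 0 and -0.21) lie apart along 1 axis.

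The genotype effect was not called as different between the sexes for any member, 0 of 51, where 0.128% of all probes were called. At an unadjusted p below 0.05, 4 members differed, all more positive in females, where 2.9% of all probes differed in that direction. They were the brighter Pcdha6 probe, Pcdha2, Pcdhb15 and Pcdhb16, with differences of 0.26, 0.22, 0.21 and 0.21. Between wildtype females and wildtype males 0 of 51 members were called, where 0.0311% of all probes were. At an unadjusted p below 0.05, 1 member was higher in females (Pcdha10) and 2 were lower (Pcdha2 and Pcdhb16), where 1.86% of all probes were higher and 1.84% lower.

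Genes around the locus and protocadherins elsewhere in the genome give the surroundings of these values. Of the genes that flank or lie within the locus, those with a probe were Zmat2, Hars, Hars2, Taf7, Diaph1, Hdac3, Rell2 and Fchsd1. None of them was called in either sex or over both. Slc25a2 and the annotated Gm genes there had no probe and could not be assessed. In a wider list of chromosome 18 neighbours, 0 of 32 probes for 22 genes were called. Of the nonclustered protocadherins and related large cadherins, 1 of 27 probes for 17 genes was called, in the average over both sexes. In that comparison 1.17% of all probes were called higher and 0.844% lower. The called probe was of Celsr2, a seven-pass cadherin of planar cell polarity. Its log2 fold change was 0.34 ± 0.06 (SE, limma adjusted p = 0.00162), 0.31 in females and 0.37 in males, and a dimmer Celsr2 probe gave 0.06.

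Of 53 probes for 26 genes whose products shape or silence the locus, 2 were called higher in females, where 0.926% of all probes were. Both were probes of Smc1a, the X-linked gene of a cohesin subunit. They had log2 fold changes of 0.43 and 0.54 in females (limma adjusted p = 9.36e-04 and 2.97e-04), and of -0.01 and 0.03 in males. The other Smc1a probes were not called. In the average over both sexes 4 probes were called higher, where 1.17% of all probes were. They were those of Smc1a, whose effects in males were -0.01 and 0.03, and a pair for Lrif1, whose human product binds SMCHD1. The Lrif1 pair had averaged effects of 0.28 and 0.23 (limma adjusted p = 0.0343 and 0.0307). Among the intracellular partners of the proteins, such as the WAVE complex and the kinases Ptk2 and Ptk2b, 0 of 21 probes were called.

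Some markers of other cell types were called, and their part in the values above was not tested. Over all probes 0.926% were called higher and 0.49% lower in females, and 1.17% higher and 0.844% lower over both sexes. Of 37 neuronal probes, 0 were called in either sex, and 1 of Neurog2, a proneural factor, was higher over both sexes (0.26, limma adjusted p = 0.0416). The mean over the neuronal probes ranged over 6.69 to 6.89 in MommeD1 females and 6.68 to 6.77 in wildtype females, and over 6.70 to 6.81 in MommeD1 males and 6.60 to 6.81 in wildtype males. Of 21 neural progenitor probes, 2 were higher in females, 1 of the Notch target Hes5 (0.51, limma adjusted p = 0.00158) and 1 of Fgf15, a growth factor gene (0.48, limma adjusted p = 5.45e-04). In males they gave 0.27 and 0.02, not called. Over both sexes 3 of the 21 were higher, 2 probes of Hes5 (0.39 and 0.40) and 1 of Fgf15 (0.25). The mean over the progenitor probes ranged over 7.72 to 7.83 in MommeD1 females and 7.68 to 7.73 in wildtype females, and over 7.72 to 7.77 in MommeD1 males and 7.61 to 7.74 in wildtype males. In the neural crest list 0 of 16 probes were called in either sex, and Msx1 was lower over both sexes (log2 fold change -0.24, limma adjusted p = 0.00726). At an unadjusted p below 0.05, 5 were lower and 0 higher in females, where 6.41% of all probes were lower. In males 2 were lower and 1 higher, where 3.53% were lower. The mean over the crest probes was 7.65 to 7.77 in MommeD1 females and 7.78 to 7.84 in wildtype females, with no overlap. In males it was 7.76 to 7.79 in MommeD1 and 7.74 to 7.85 in wildtype embryos. Of 16 erythroid probes, 1 of the transferrin receptor gene Tfrc was lower in females (log2 fold change -0.38, limma adjusted p = 0.0422). In males and over both sexes 0 of the 16 were called. The mean over the erythroid probes ranged over 10.23 to 10.29 in MommeD1 females and 10.20 to 10.55 in wildtype females. In males it ranged over 10.15 to 10.81 in MommeD1 and 10.17 to 10.45 in wildtype embryos. Of 17 yolk sac and 12 decidual probes, 0 were called in any of these comparisons.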

How the data were processed

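RNA of 16 single samples labelled as separate embryos was measured on MouseRef-8 BeadChips. Nothing in the labels says which embryos were littermates, so p-values measure the spread between these samples. The deposited log2 intensities had been normalised by the authors with the beadarray and limma packages. Values ran from 5.26 to 15.0 over all arrays together, and the array medians from 6.339 to 6.340. Which normalisation gave these values was not checked. The log base was taken from the study's fold changes, and no source used here states a background correction. Another table, with 32 signal and detection columns, was not used, because no label ties its columns to an embryo, so probes were not filtered on detection.

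Probe symbols came from the platform annotation, where 23978 probes had 1 symbol, 0 several and 1719 none. Gene order came from RefSeq (GRCm38.p6). All 25697 probes were fitted with limma 3.58.1 (R 4.3.3; lmFit and eBayes) with the 4 groups as terms and 12 residual degrees of freedom, and p-values were adjusted by the Benjamini-Hochberg method (threshold 0.05). The fit was tested on simulated data. Alternatives were a filter on low values, chip or replicate number as a block, each chip or sex alone, other moderation, array weights, another centring, 1 probe per gene and arrays left out. Named members were Pcdhb22, Pcdhb3 and Pcdhb16, those called in any comparison, with a mean above 7 or with no overlap in both sexes, the 3 with the lowest p in each genotype comparison, and genes whose probes disagreed. Members and lists were chosen with earlier results of these data known.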

Additional observations from a re-analysis of the deposited data

How the results depend on the processing

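In females 3 members were called, against 1 on chip 1 alone and 1 on chip 2 alone. A filter for probes above 7 on at least 4 arrays left 1 member to test, Pcdhb22, which was called. Pcdhb22 passed this filter through MommeD1 arrays alone (8 of 8 above 7, against 0 of 8 wildtype arrays). Its calls after the filter are therefore no separate support for the effect. Leaving out 1 array at a time gave 1 to 3 members in females, 1 to 2 in males and 2 to 3 over both sexes. Over both sexes 2 were called, against 1 with the filter, 1 on chip 1 and 1 on chip 2. In males 1 was called, against 0 on chip 2 alone, where Pcdhb22 kept its effect of 0.86 (limma adjusted p = 0.0625). Each chip alone held 8 arrays. No member was called under any alternative for the difference between the sexes or for wildtype females against males. With the replicate number as a block, 2 members were called in females (Pcdhb16 had an adjusted p of 0.0530), 1 in males and 2 over both sexes. The numbers do not pair the embryos by any label, and deviations of same-numbered MommeD1 and wildtype arrays of 1 sex correlated at -0.01 to 0.41, with 4 of 8 pairs above 0.1. In females 6 of 8 arrays and in males 2 of 8 correlated best with their own number.

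Among the probes of Pcdhb22, Pcdhb3, Pcdhb16, Pcdhb15 and Pcdha6, directions reversed only for effects near 0. Directions of the other members under the alternatives were not examined. The effect of the brighter Pcdha6 probe in males was -0.0046 on chip 1. That of the dimmer Pcdha6 probe was -0.068 in females and -0.017 over both sexes on chip 2, and between -0.019 (without wildtype female 2) and 0.086 (without wildtype female 4) in females with 1 array left out. Pcdhb15 in females was 0.051 on chip 1, and between -0.059 and 0.030 with 1 array left out, above 0 without MommeD1 females 1 (0.0088), 3 (0.025) or 4 (0.013) or wildtype females 2 (0.020) or 4 (0.030). Pcdhb16 in males was -0.016 on chip 1. Of all probes, 364 were called in females, against 731 with the filter, 576 with trended and robust moderation, 228 without the 3 arrays high in yolk sac transcripts, 47 on chip 1, 59 on chip 2 and 184 to 402 with 1 array left out. In males 11 were called, against 23 with moderation so changed, 6 with 1 probe per gene, 31 without the 3 arrays and 47 without MommeD1 male 1. Over both sexes 517 were called, against 1045 with the filter, 31 on chip 1, 59 on chip 2 and 320 to 657 with 1 array left out. The cause of these shifts was not tested. All members had a mean of at most 7, where signal over background limits what fold changes can show.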
